A study of Mus musculus with 4 samples.

Results

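Spots holding cell cycle transcripts were picked out of 4 Visium sections of mouse liver. Visium records RNA by place on a slide, and a spot covers a small patch that can hold more than 1 cell. A spot was called cycling where its unique transcripts (UMIs) of Mki67, Top2a, Cdk1, Ccnb1, Ccna2 and Birc5 summed to at least 2, and it belonged to the other spots where the sum was 0. Of 8130 spots with at least 5000 UMIs, among 8252 in all, 138 were cycling, 7106 were other spots, and 886 with a sum of 1 stood in neither class. The MAFL group holds sections MAFL-1 and MAFL-2, from mice fed a diet labelled WD for 8 weeks, and the MASH group holds MASH-1 and MASH-2, from mice fed it for 16 weeks. All 4 sections thus share the diet, no untreated liver was compared here, and the labels state neither strain, sex nor age, nor if different animals were used. The p-values therefore measure spread over these sections, which may be technical. In the gene tests each section is compared with itself. The spread there is that of the difference between classes, estimated largely by sharing it among genes. Alb and Ttr, the defining transcripts of hepatocytes, were present in every spot of all 4 sections, so the tissue label fits its defining markers. Visium slides reuse a barcode list, and pairs of sections shared between 1182 and 1725 barcodes, so spots were always kept apart by section.

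The 6 genes mark different points of the division cycle. Mki67 is present in cycling cells of all phases and absent from resting ones, Top2a untangles replicated chromosomes, Cdk1 is the kinase that drives mitosis, and Ccna2 and Ccnb1 are cyclins that activate it. Birc5 (survivin) belongs to the chromosomal passenger complex. In adult liver most hepatocytes rest outside the cycle, and infiltrating or resident immune cells, stellate cells and endothelial cells can divide too. A Visium spot does not show which of its cells held a transcript.

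Late cell cycle genes are known for promoters that carry CCAAT boxes, bound by NF-Y, and a CHR element with the core TTTGAA, bound by the DREAM and MuvB complexes. The 4 promoters below were chosen because they hold both motifs and belong to Top2a, a gene of the rule, and to Ube2c, Ccnb2 and Hmgb2, which passed the test described further on. Each is the 250 bases before the annotated start in RefSeq on build GRCm38.p6, written 5′ to 3′ in the direction of the gene, with TTTGAA and CCAAT, or their reverse complements TTCAAA and ATTGG, in capitals. They lie at chr11:99024190-99024439 on the minus strand (Top2a), chr2:164769679-164769928 on the plus strand (Ube2c), chr9:70421555-70421804 on the minus strand (Ccnb2) and chr8:57511593-57511842 on the plus strand (Hmgb2). In Ube2c a CCAAT overlaps an ATTGG.
Top2a: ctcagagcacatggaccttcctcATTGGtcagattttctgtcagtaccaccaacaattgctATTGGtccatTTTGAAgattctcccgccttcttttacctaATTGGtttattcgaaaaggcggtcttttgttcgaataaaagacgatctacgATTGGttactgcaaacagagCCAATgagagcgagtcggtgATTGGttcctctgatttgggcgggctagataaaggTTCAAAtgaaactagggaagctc
Ube2c: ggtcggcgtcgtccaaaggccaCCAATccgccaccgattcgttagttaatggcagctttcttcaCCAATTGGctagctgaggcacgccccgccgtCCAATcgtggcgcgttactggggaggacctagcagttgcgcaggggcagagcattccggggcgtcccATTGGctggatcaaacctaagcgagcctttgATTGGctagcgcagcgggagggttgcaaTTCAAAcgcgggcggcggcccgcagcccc
Ccnb2: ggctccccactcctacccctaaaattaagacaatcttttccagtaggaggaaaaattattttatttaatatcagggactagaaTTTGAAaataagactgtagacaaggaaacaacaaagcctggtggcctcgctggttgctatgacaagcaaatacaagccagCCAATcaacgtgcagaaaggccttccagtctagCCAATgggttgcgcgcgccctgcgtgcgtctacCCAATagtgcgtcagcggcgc
Hmgb2: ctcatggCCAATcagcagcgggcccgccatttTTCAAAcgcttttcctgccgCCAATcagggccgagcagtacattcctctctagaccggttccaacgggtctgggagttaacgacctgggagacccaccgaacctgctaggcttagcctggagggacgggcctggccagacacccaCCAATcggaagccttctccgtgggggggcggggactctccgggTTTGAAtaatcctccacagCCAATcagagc
Ube2c held TTCAAA 29 bases before the start, Top2a 23 bases before it, and Hmgb2 TTTGAA 30 bases before it, whereas the TTTGAA of Ccnb2 lay 167 bases upstream. Of all 32851 promoter windows of this length, 16.0% held TTTGAA on either strand, 33.8% held CCAAT and 5.55% held both. Among the 5 rule genes with a promoter entry, 3 held TTTGAA, 4 held CCAAT and 3 held both (Mki67, Top2a and Cdk1). Among 11 genes of the cell cycle lists that passed the test and had an entry, 3 held TTTGAA, 9 held CCAAT and 3 held both. A match shows only that these letters stand in the window.

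Cycling spots were few in every section and far from evenly spread. MAFL-1 held 3 of 2001 spots, MAFL-2 22 of 1859, MASH-1 39 of 2424 and MASH-2 74 of 1846. Most sat at the threshold, since 107 of the 138 had a sum of exactly 2 and 31 a sum of 3 or more. Just outside it lay the spots with a sum of 1, which numbered 155 and 219 in the MAFL sections and 270 and 242 in the MASH sections. Transcripts of at least 2 different rule genes were present in 109 cycling spots, and 29 held 1 gene only. The highest sum, 9, was reached by 1 spot of MASH-1 and 1 of MASH-2. These values come from the rule itself and are a description.

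Birc5 was the rule gene found in most cycling spots, 74 of 138, followed by Mki67 in 63, Cdk1 in 49, Top2a in 40, Ccna2 in 30 and Ccnb1 in 16. Over all spots of a section, Mki67 came to 0.965 and 1.29 CPM in MAFL-1 and MAFL-2 and to 1.65 and 2.04 CPM in MASH-1 and MASH-2 (CPM, UMIs scaled to a fixed library total). Top2a came to 0.405 and 0.657 CPM in MAFL and to 0.754 and 1.64 CPM in MASH. Both MASH sections lay above both MAFL sections for these genes. Cdk1 had no such order, with 1.81 and 1.47 CPM in MAFL and 1.07 and 2.07 CPM in MASH, and Birc5 was highest in MAFL-2, with 1.37 and 2.86 CPM in MAFL and 1.73 and 2.36 CPM in MASH. The 3 cycling spots of MAFL-1 held no Top2a, Cdk1 or Ccnb1 UMI. The markers Top2a and Cdk1 were therefore not seen in the spots of that section that carry the label.

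Cycling spots were also deeper than the others, which a fixed sum of UMIs favours. Their median was 17445 UMIs against 15373 in MAFL-1, 22245.5 against 19517 in MAFL-2, 29652 against 25250 in MASH-1 and 28123.5 against 19480.5 in MASH-2. The share of cycling spots as deposited was 0.150% in MAFL-1, with an exact (Clopper-Pearson) 95% interval of 0.0309 to 0.438%. It was 1.18% in MAFL-2 (0.743 to 1.79%), 1.61% in MASH-1 (1.15 to 2.19%) and 4.01% in MASH-2 (3.16 to 5.01%). The section values thus did not overlap between the groups. The difference of the group means was 2.14 percentage points (0.667 ± 0.731% in MAFL, 2.81 ± 1.70% in MASH, SD, n = 2 each), with a two-sided exact permutation p of 0.33, the smallest that 2 against 2 sections can give.

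After each spot was thinned at random to 5000 UMIs, few spots kept a sum of 2. The counts were 0 in MAFL-1, 1 in MAFL-2, 4 in MASH-1 and 10 in MASH-2, or 0, 0.0538, 0.165 and 0.542% of spots. The 0 of 2001 spots in MAFL-1 allows a share of up to 0.150% by the limit of 3 counts, and of up to 0.184% by the exact 95% interval. Group means differed by 0.326 percentage points (exact permutation p = 0.33). Without MASH-2 the difference was 0.138 points. Spots with at least 1 thinned UMI gave 2.45% in MAFL-1 (1.82 to 3.22%), 3.50% in MAFL-2 (2.71 to 4.44%), 2.60% in MASH-1 (2.0 to 3.31%) and 4.71% in MASH-2 (3.79 to 5.78%). On this measure the groups overlapped, with MASH-1 below MAFL-2, and the difference of 0.683 points had an exact permutation p of 0.667. Intervals cover counting error only.

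**Figure D1:**
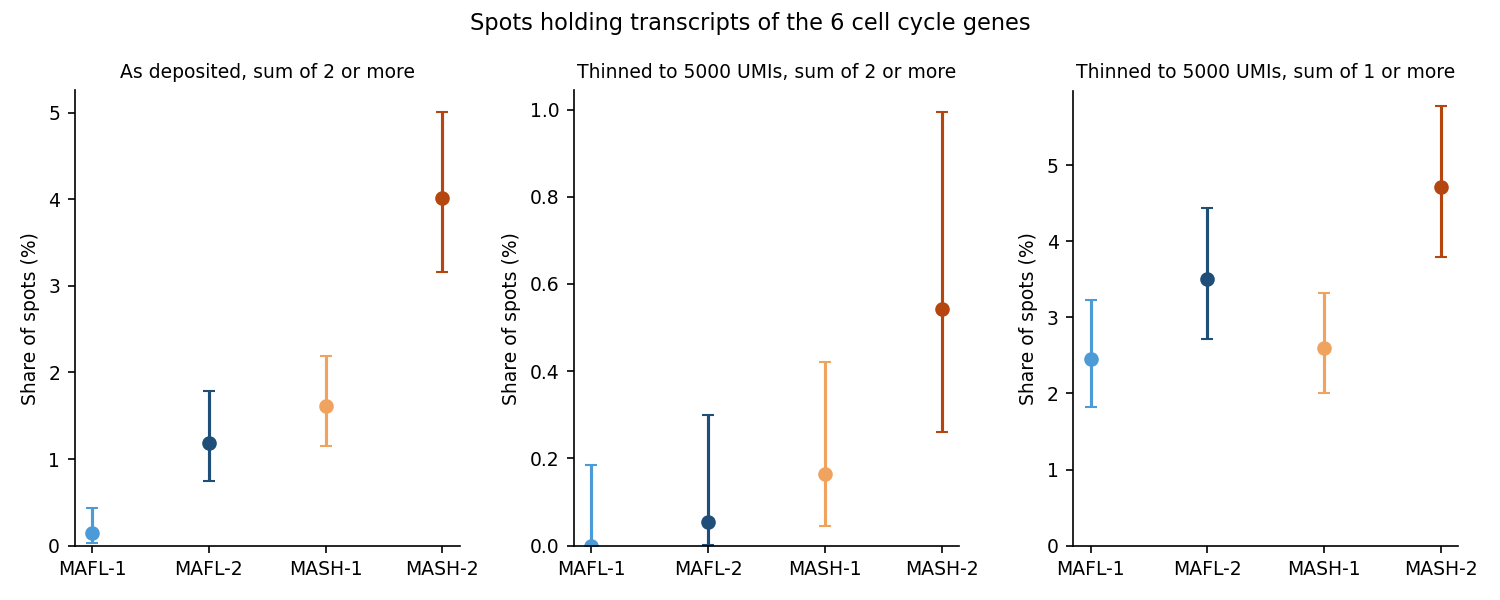
Share of spots (%, vertical axes) holding UMIs of the 6 cell cycle genes in each section, as deposited with a sum of 2 or more (left), and thinned to 5000 UMIs with a sum of 2 or more (middle) or 1 or more (right). Bars are exact 95% binomial intervals; MASH-2 is highest in all 3 panels, and in the right panel MASH-1 (2.60%) lies below MAFL-2 (3.50%).

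Along the lobule, the share of cycling spots was compared between zones as deposited, and the share of spots with cell cycle UMIs also after thinning. Spots of each section were split into 3 equal classes by the ratio of Cyp2f2, a periportal cytochrome, to Cyp2e1, a pericentral one. Of the 138 cycling spots, 36 lay in the pericentral class, 32 in the middle and 70 in the periportal class. As deposited, the periportal share exceeded the pericentral one in 4 of 4 sections: 0.300 against 0.150% in MAFL-1, 1.78 against 0.968% in MAFL-2, 2.48 against 0.990% in MASH-1 and 6.02 against 3.41% in MASH-2. The mean difference was 1.26 percentage points (exact sign-flip permutation p = 0.13, the smallest that 4 sections allow). Depth moved the same way in the MASH sections, where the periportal class had a median of 32869 UMIs against 22403.5 in MASH-1 and 33218 against 15599 in MASH-2. In MAFL-1 the medians were 15636 and 15796, and in MAFL-2 22045 and 18066.5.

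As deposited, the share with at least 1 UMI was 15.3 ± 5.71% in the periportal and 10.9 ± 4.15% in the pericentral class (mean ± SD, n = 4 sections), higher periportally in 3 of 4 sections (exact permutation p = 0.25). With spots thinned to 5000 UMIs this share was 3.30 ± 0.998% in the periportal and 3.23 ± 1.30% in the pericentral class, and it was higher periportally in 1 of 4 sections, MAFL-1 (exact permutation p = 1). The thinned pericentral, middle and periportal shares were 1.65, 2.85 and 2.85% in MAFL-1 and 3.71, 3.23 and 3.55% in MAFL-2. They were 2.85, 2.72 and 2.23% in MASH-1 and 4.71, 4.88 and 4.55% in MASH-2. What part depth has in these differences was not tested. With the zone taken from 6 periportal over 6 pericentral genes the thinned shares were 3.37 and 3.13%, higher periportally in 3 of 4 sections (exact permutation p = 0.625). The stricter share, at least 2 thinned UMIs, was 0.275 against 0.112%, a difference of 0.162 points (exact permutation p = 0.5). Without MASH-2 that difference was 0.0539 points, and with another thinning seed it was -0.0807 points. It rests on 10 spots of MASH-2, 4 of MASH-1 and 1 of MAFL-2.

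**Figure D2:**
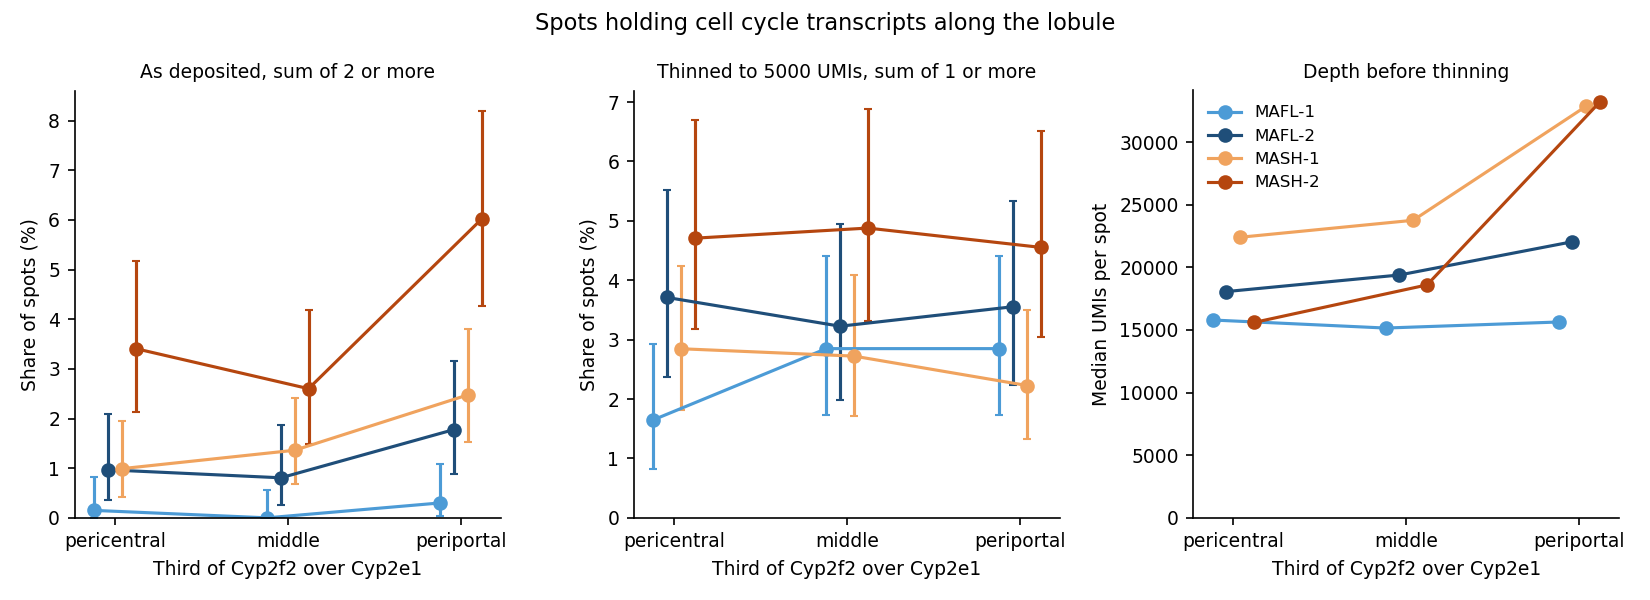
Share of spots (%) in the pericentral, middle and periportal class of each section, as deposited with a sum of 2 or more (left) and thinned to 5000 UMIs with a sum of 1 or more (middle), with exact 95% binomial intervals, beside the median UMIs per spot before thinning (right). In MASH-2 the share rises to 6.02% in the periportal class of the left panel and stays between 4.55 and 4.88% in the middle panel. Its depth rises to 33218 UMIs. MAFL-1 is higher periportally in the middle panel too, at 2.85 against 1.65%. The left and middle panels differ in threshold as well as in depth.

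Spots were also split into 3 equal classes by the thinned UMIs of 8 immune gene lists. Of the 138 cycling spots, 41 lay in the immune-poor class, 40 in the middle and 57 in the immune-rich class. As deposited, the share with a sum of 2 or more was higher in the immune-rich class in 3 of 4 sections. Its mean difference was 0.592 points (exact sign-flip permutation p = 0.375), and MAFL-2 went the other way, at 1.13 against 1.61%. After thinning, cell cycle transcripts were more frequent in the immune-rich class in 4 of 4 sections. Their share was 4.21 ± 1.03% against 3.16 ± 1.32% in the immune-poor class (at least 1 thinned UMI, mean ± SD, n = 4). The difference of 1.05 points had an exact sign-flip permutation p of 0.13. By section the immune-rich and immune-poor shares were 3.45 and 1.95% in MAFL-1, 4.52 and 4.03% in MAFL-2, 3.34 and 2.10% in MASH-1, and 5.53 and 4.55% in MASH-2. The middle class did not lie between them in MAFL-2 (1.94%) and MASH-2 (4.07%). For at least 2 thinned UMIs the difference was 0.113 points (exact permutation p = 0.75) and, without MASH-2, -0.0125.

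Whether the 6 genes come together in spots was tested by classing spots on 3 of them and measuring the other 3. Ccna2 and Birc5 were higher in the spots holding Mki67, Top2a or Cdk1, and Mki67 was higher in those holding Ccnb1, Ccna2 or Birc5. Of 5 held-out genes tested, 3 passed, beside 0.434% of all genes in the first classing and 0.694% in the second. Ccnb1 was too low to be tested.

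Ccna2 came to 0.573, 1.14, 1.43 and 2.43 CPM (from here on with library sizes adjusted by TMM) in spots with Mki67, Top2a or Cdk1, in section order (both MAFL sections by number, then both MASH sections). Spots without them had 0.304, 0.389, 0.346 and 0.562 CPM. Every section was higher, by 3.78-fold in the fit (log2 fold change 1.92 ± 0.40 SE, edgeR adjusted p = 0.00495). The MAFL-1 value is 1 UMI. The filter on low counts kept Ccna2 mainly through the spots with Mki67, Top2a or Cdk1, so its fold and p are partly set by that filter. Birc5 was 2.10-fold higher (edgeR adjusted p = 0.0453), in 3 of 4 sections, with 0 UMIs in the classed spots of MAFL-1.

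Classed the other way, Mki67 was 2.64-fold higher (log2 fold change 1.40 ± 0.29 SE, edgeR adjusted p = 0.000496), again in 3 of 4 sections. Its values were 0.941 against 0.992 CPM in MAFL-1, 2.89 against 1.23 in MAFL-2, 4.32 against 1.48 in MASH-1 and 4.65 against 1.62 in MASH-2. MAFL-1 alone showed no excess. Top2a, at 2.54-fold (edgeR adjusted p = 0.0523), and Cdk1, at 1.97-fold (edgeR adjusted p = 0.148), did not pass. Without MASH-2 none of the 5 passed in edgeR (3 had an unadjusted p under 0.05), without MASH-1 1 did, and with classes set after thinning none did (3 unadjusted).

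Counted as spots, the same classing gave a higher share with a held-out UMI in 3 sections. Among spots with Mki67, Top2a or Cdk1, 20.7% of 217 in MASH-2 also held Ccnb1, Ccna2 or Birc5, against 6.08% of 1629 spots without them. The shares were 10.3 against 5.16% in MASH-1, 11.1 against 6.64% in MAFL-2 and 0.990 against 3% in MAFL-1. Median depth in MASH-2 was 25569 UMIs in the first class and 19670 in the second, and its part in the difference was not tested. In MAFL-1 only 1 of 101 such spots held a UMI of the other 3 genes.

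Other cell cycle genes were more abundant in cycling spots. Over 134 genes of 6 lists, none of them in the rule, cycling spots held 10.5 UMIs per 10000 in MAFL-1, 8.78 in MAFL-2, 12.1 in MASH-1 and 12.4 in MASH-2. Other spots held 8.20, 7.32, 8.75 and 9.63. The level was higher in 4 of 4 sections, by 1.29-fold in the mean. The 8 immune lists stood 1.25-fold higher in cycling spots, also in 4 of 4 sections. UMIs of the 134 genes were not particular to cycling spots. They were present in 99.9% of the spots with a sum of 0 in MAFL-1 and in 100% in each other section. Of their mean of 8.47 per 10000 in other spots, 4.34 came from the histone and chromatin list. Spots with a sum of 1 differed little from the others (1.03-fold), and those with a sum of 3 or more reached 18.3 in the 8 spots of MASH-1 and 16.1 in the 21 of MASH-2. The 2 such spots of MAFL-2 had 8.47. From other spots to spots with a sum of 3 or more, the 8 immune lists went from 46.3 to 76.7 UMIs per 10000 in MASH-2. In MASH-1 they went from 35.01 to 60.8, of which 10.2 came from the B and plasma cell list, at 0.414 in other spots. In MAFL-2 they went the other way, from 25.4 to 23.3.

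**Figure D3:**
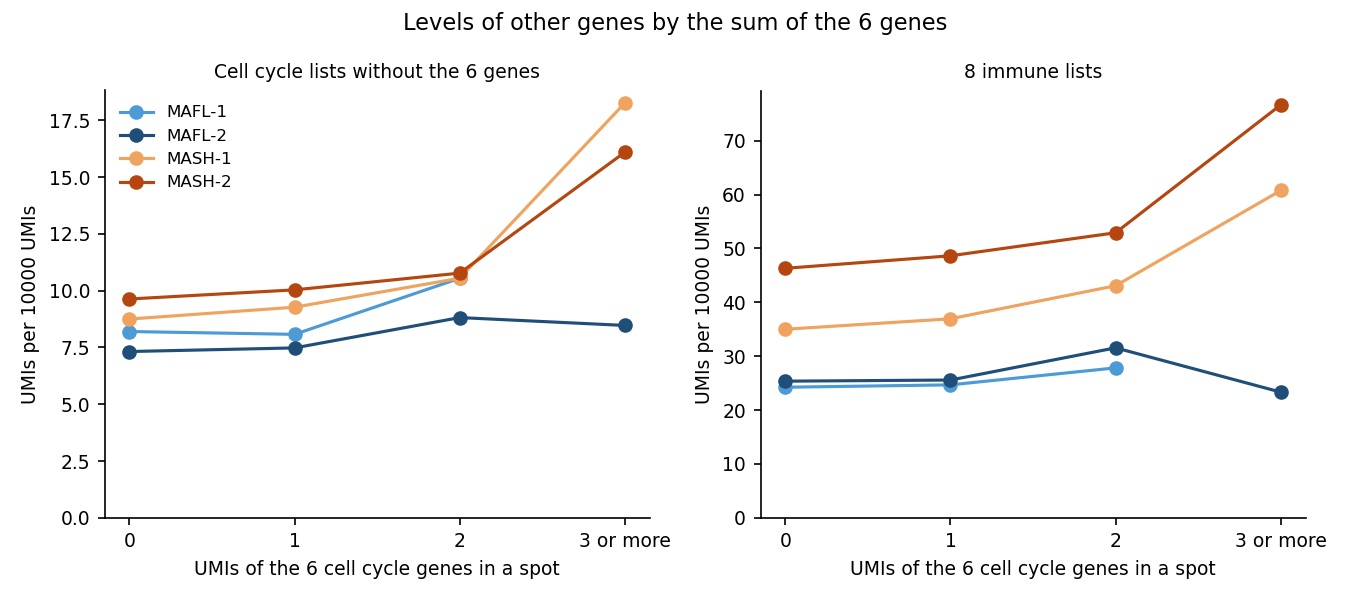
UMIs per 10000 UMIs (vertical axes) of the cell cycle lists without the 6 genes (left) and of the 8 immune lists (right), in spots grouped by their sum of the 6 genes, 1 line per section. Spots with a sum of 3 or more stand apart in MASH-1 (18.3) and MASH-2 (16.1) on the left, and the immune lists are highest in the same spots.

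The 6 cell cycle lists had different ratios, which were not tested against each other. Condensin, cohesin and cytokinesis genes stood 2.46-fold higher in cycling spots, spindle and kinetochore genes 1.84-fold and mitotic kinases and cyclins 1.42-fold. Histones and chromatin genes stood 1.30-fold and DNA synthesis genes 1.16-fold higher, and each of these lists was higher in 4 of 4 sections. The cycling spots of MAFL-1 held only 3, 4, 9, 34 and 10 of their UMIs, in the order given. Its direction thus rests on few UMIs. Without MAFL-1 the ratios were 2.15-, 1.76-, 1.32-, 1.29- and 1.21-fold, each higher in the 3 sections left. Replication licensing genes were at 0.900-fold, a mean set by 4 UMIs in MAFL-1, at 0.659 per 10000 against 1.13 in the spots with a sum of 0. They stood at 0.811 against 0.850 in MAFL-2, 1.22 against 1.11 in MASH-1 and 0.964 against 0.898 in MASH-2, and the ratio without MAFL-1 was 1.04-fold. Cycle brakes with p53 targets were at 0.851-fold, or 1.02-fold without MAFL-1, where 4 UMIs gave 0.659 against 1.34. G1 cyclins were at 0.988-fold, and at 0.964-fold without MAFL-1. These folds are ratios of UMIs per 10000, averaged over sections on the log scale.

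Gene by gene, counts of each class were summed per section and compared with the section as a block. Of 12119 genes tested, 49 were higher in cycling spots (0.404%) and 40 lower (0.33%), or 0.734% in all, and the median log2 fold change was -0.03. Of the 134 other cell cycle genes 83 could be tested, 13 were higher and 0 lower, with a median log2 fold change of 0.43. The filter kept genes partly through the cycling sums, so the tested genes do not stand for the list. For genes of few UMIs it also favours a higher value in cycling spots. By DESeq2, 0 of the 83 passed, with 21 at an unadjusted p under 0.05, all higher. DESeq2 gives no adjusted p to genes under its own cutoff on mean count. Low genes could therefore not pass, and the 0 cannot be read as a lack of difference. DESeq2 called 13 genes in all (0.107% of the 12119, many of which had no adjusted p), 191 having an unadjusted p under 0.05. Without MASH-2, 2 of 76 tested cell cycle genes passed (Cenpa and Racgap1), beside 0.101% of all genes higher. Of the 83, 9 were higher in all 4 sections, as were 2.86% of all genes.

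Among licensing and DNA synthesis genes, 3 of 40 tested were higher. Pclaf, the PCNA clamp associated factor, was present at 13.0 CPM (1 UMI) in MAFL-1, 0 in MAFL-2, 2.58 in MASH-1 and 4.92 in MASH-2. Other spots had 0.186, 0.136, 0.229 and 0.809 CPM. It was higher in 3 of 4 sections, and the fitted fold was 7.16 (log2 fold change 2.84 ± 0.48 SE, edgeR adjusted p = 1.73e-05). The filter on low counts kept Pclaf mainly through its cycling sums, so this fold and p are partly set by the filter. Only 11 of 19 alternative settings could test it. Mcm5, a subunit of the replicative helicase, was 3.37-fold higher (edgeR adjusted p = 0.000499), with 21 of its 25 UMIs in MASH-2. Pcna, the sliding clamp, did not pass (log2 fold change 0.36, edgeR adjusted p = 0.437).

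The list of chromatin and cytoskeletal genes gave 4 of 14 higher. Some of them were frequent outside cycling spots too. Tubb5 had UMIs in 50.5% of the spots with a sum of 0, and Stmn1 in 19.2%. Hmgb2, a chromatin protein of proliferating cells, stood at 20.7 against 5.72 CPM in MASH-1 and 18.0 against 8.98 in MASH-2, and at 13.0 against 4.68 in MAFL-1 and 4.13 against 5.56 in MAFL-2. It was 2.29-fold higher in the fit (edgeR adjusted p = 0.000513). Stmn1, which destabilises microtubules, was higher in 4 of 4 sections, at 13.0 against 12.5, 14.5 against 9.86, 24.1 against 10.0 and 22.9 against 12.8 CPM in section order. The MAFL-1 values of Stmn1 were nearly equal, and 13.0 CPM in the cycling spots of MAFL-1 is 1 UMI, for Hmgb2 too. Stmn1 was 1.90-fold higher in the fit (edgeR adjusted p = 0.00199). The tubulins Tuba1b, 1.66-fold, and Tubb5, 1.45-fold, had edgeR adjusted p of 1.46e-07 and 0.00258.

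Spindle and kinetochore genes gave 2 of 9. Cenpa, the histone variant of centromeres, was higher in 4 of 4 sections, at 25.9 CPM (2 UMIs) against 2.89 in MAFL-1, 6.20 against 4.34 in MAFL-2, 18.9 against 4.48 in MASH-1 and 6.97 against 4.43 in MASH-2. The fit gave 2.51-fold (log2 fold change 1.33 ± 0.29 SE, edgeR adjusted p = 0.00159). Knstrn, a kinetochore adaptor, was 4.83-fold higher (edgeR adjusted p = 0.0067) on 12 UMIs, and 14 of 19 alternative settings could test it. With so few UMIs the filter on low counts may have kept Knstrn mainly through its cycling sums, as it did Pclaf.

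Mitotic kinases, ubiquitin ligases and cyclins gave 3 of 11. Ube2c, which loads ubiquitin for the anaphase-promoting complex, reached 9.42 against 1.70 CPM in MASH-2 and 3.44 against 1.89 in MASH-1, with 1 UMI in MAFL-2 and none in MAFL-1. It was 3.74-fold higher (edgeR adjusted p = 3.18e-05). Cdca3, which triggers mitotic entry, was 3.62-fold higher (edgeR adjusted p = 0.00509), and the B-type cyclin Ccnb2 4.38-fold (edgeR adjusted p = 0.0117), 10 of its 12 UMIs being in MASH-2. Ccnb2 could be tested in 14 of 19 alternative settings. Among 9 condensin, cohesin and cytokinesis genes, Racgap1 of the central spindle passed, higher in 4 of 4 sections and 4.86-fold in the fit (edgeR adjusted p = 0.00393). In MAFL-1 all genes of that list together had 3 UMIs in cycling spots, so the direction of Racgap1 there rests on few UMIs. It could be tested in 15 of 19 alternative settings. For Ccnb2 and Racgap1 the filter on low counts may act as for Pclaf, so their folds and p may be partly set by it. No gene passed among 12 G1 cyclins and kinases, 15 brakes and p53 targets, 14 hepatocyte growth signals and 3 fetal liver genes. Cdkn1a, the p53 target p21, had a log2 fold change of -0.21 (edgeR adjusted p = 0.946).

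Immune genes were higher in cycling spots beside the cycle genes. MHC class II gave 4 of 8 tested, monocyte and macrophage genes 5 of 15, lipid-associated macrophage genes 4 of 12, B and plasma cell genes 1 of 7, and Kupffer cell, T and NK cell, dendritic cell and neutrophil genes none. Without MASH-2 the first 3 of these lists gave 1, 0 and 1 (median log2 fold changes 0.56, 0.46 and 0.47). Without MASH-1 they gave 3, 4 and 4, and by DESeq2 3, 0 and 0. Cd74, the chaperone of class II molecules, stood at 143 against 84.8 CPM in MAFL-1, 103 against 88.8 in MAFL-2, 389 against 247 in MASH-1 and 585 against 393 in MASH-2. It was higher in 4 of 4 sections, by 1.48-fold (log2 fold change 0.56 ± 0.09 SE, edgeR adjusted p = 7.9e-07). H2-Aa and H2-Ab1 were also higher in 4 of 4 sections, by 1.45-fold and 1.39-fold (edgeR adjusted p = 3.42e-06 and 2.42e-05). The lowest p of all belonged to Tmsb10, an actin-binding peptide, at 90.7 against 58.8, 72.3 against 48.0, 158 against 91.8 and 210 against 126 CPM in section order (1.66-fold, edgeR adjusted p = 6.39e-12). Arpc1b, a subunit of the actin-nucleating Arp2/3 complex, was 1.37-fold higher in 4 of 4 sections (edgeR adjusted p = 0.00417). In the cycling spots of MAFL-1, Cd74, H2-Aa and Tmsb10 had only 11, 6 and 7 UMIs, with 6, 4 and 4 of them in 1 spot.

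Macrophage genes had most of their UMIs in the MASH sections. Lgals3, a galectin of activated macrophages, came to 131 against 66.8 CPM in MASH-2 and 40.4 against 29.5 in MASH-1, with 0 UMIs in MAFL-1 and 16.5 against 12.3 CPM in MAFL-2. Its fold was 1.77 (edgeR adjusted p = 1.53e-09). Lyz2, the lysozyme of myeloid cells, was 1.49-fold higher (edgeR adjusted p = 2.32e-08), and the macrophage elastase Mmp12 1.90-fold (edgeR adjusted p = 1.11e-06). The monocyte genes Ly6c2 and Ccr2 were 2.73-fold and 2.52-fold higher (edgeR adjusted p = 0.000138 and 0.00123). Clec4f, which defines Kupffer cells, had a log2 fold change of 0.14 (edgeR adjusted p = 0.783). Among 15 stellate cell and fibroblast genes 4 were higher, Col1a1, Col1a2, Col3a1 and the protease inhibitor Timp1. Without MASH-2 0 of the 15 passed (median log2 fold change 0.31), without MASH-1 3 did, and by DESeq2 0. No endothelial or cholangiocyte gene passed. Within spots below their section's median of immune UMIs, 0 of 67 tested cell cycle genes passed in edgeR and 9 had an unadjusted p under 0.05 (median log2 fold change 0.26), on 11 cycling spots of MAFL-2, 17 of MASH-1, 31 of MASH-2 and none of MAFL-1. In this subset 37 of all genes passed, 5 higher (0.0443%) and 32 lower (0.284%).

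**Figure D4:**
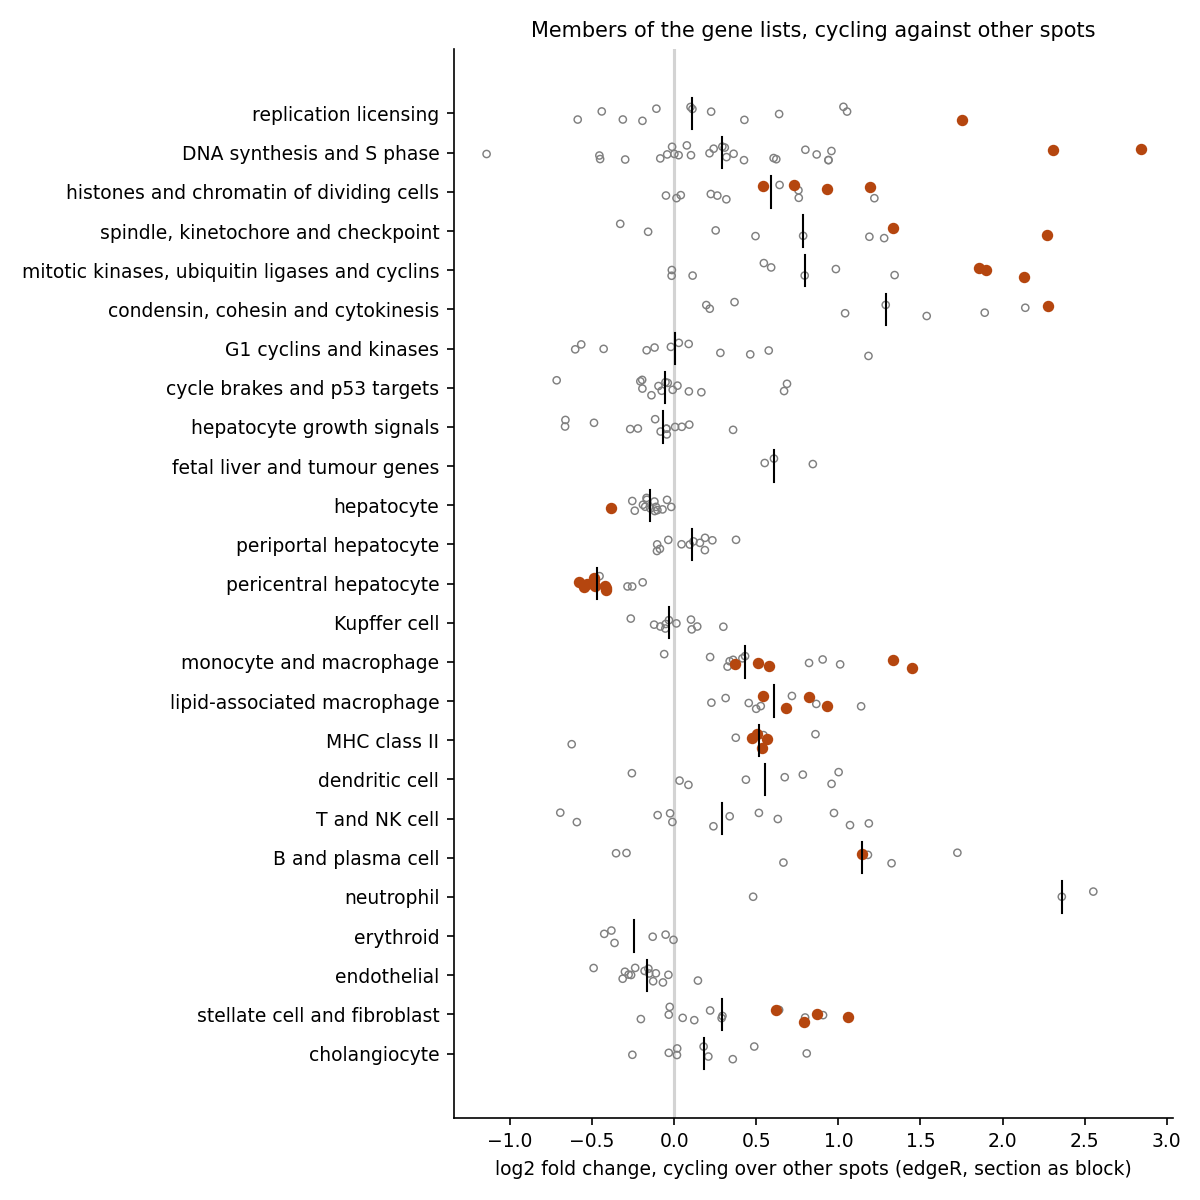
Log2 fold change (horizontal axis) of each tested member of the 25 lists, cycling over other spots, with genes past an edgeR adjusted p of 0.05 filled and a black bar at the list's median. Filled points to the right belong to the cell cycle, macrophage, MHC class II, plasma cell and stellate lists, and 9 of 14 pericentral genes are filled to the left.

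Genes of the pericentral hepatocyte were lower in cycling spots. Of 14 tested, 9 passed, all lower, with a median log2 fold change of -0.47, whereas 0 of 12 periportal genes passed (median 0.11). Without MASH-2, 1 of the 14 passed, without MASH-1, 4, and by DESeq2, 3. Cyp2e1 stood at 2112 against 3951 CPM in MAFL-1, 4668 against 6140 in MAFL-2, 5034 against 7040 in MASH-1 and 3975 against 5464 in MASH-2. All 4 sections were lower, by 1.44-fold in the fit (edgeR adjusted p = 0.000199). Glul, the glutamine synthetase of the cells around the central vein, was 1.41-fold lower (edgeR adjusted p = 4.36e-05), and Oat, ornithine aminotransferase, 1.50-fold lower (edgeR adjusted p = 6.89e-07). Cyp2c29 and Cyp2c54, the glutamate transporter Slc1a2 and the hepatokine Lect2 were lower in 4 of 4 sections too, by 1.49-, 1.48-, 1.47- and 1.44-fold. Cyp2c38 and the complement factor Cfd were 1.79- and 1.49-fold lower. For them MAFL-1 gives no direction, since its 3 cycling spots held 0 UMIs where 0.591 and 0.409 were expected at the rate of the other spots. The Cyp2c family gave 6 of 11 lower and the Mup family 8 of 18, families whose near-identical copies can share reads. Against other spots of matched depth, 10 for each cycling spot, 0 of 13 pericentral genes passed in edgeR and 4 had an unadjusted p under 0.05 (median log2 fold change -0.08, beside 0.111% of all genes lower), while 5 of 32 cell cycle genes passed (Tuba1b, Hmgb2, Stmn1, Tubb5 and Cenpa). Outside the pericentral list, Cyp2e1 and Cyp2c29 were still lower in that comparison (log2 fold change -0.32 and -0.27, edgeR adjusted p = 0.00898 and 0.0427), as were 5 of the Mup genes. MHC class II then gave 4 of 6 and lipid-associated macrophage genes 6 of 10, beside 0.567% of all genes higher. With depth and zone both matched, Glul and Oat had log2 fold changes of 0.13 and 0.09. In a spot, fewer cells of a type and less RNA per cell cannot be told apart.

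**Figure D5:**
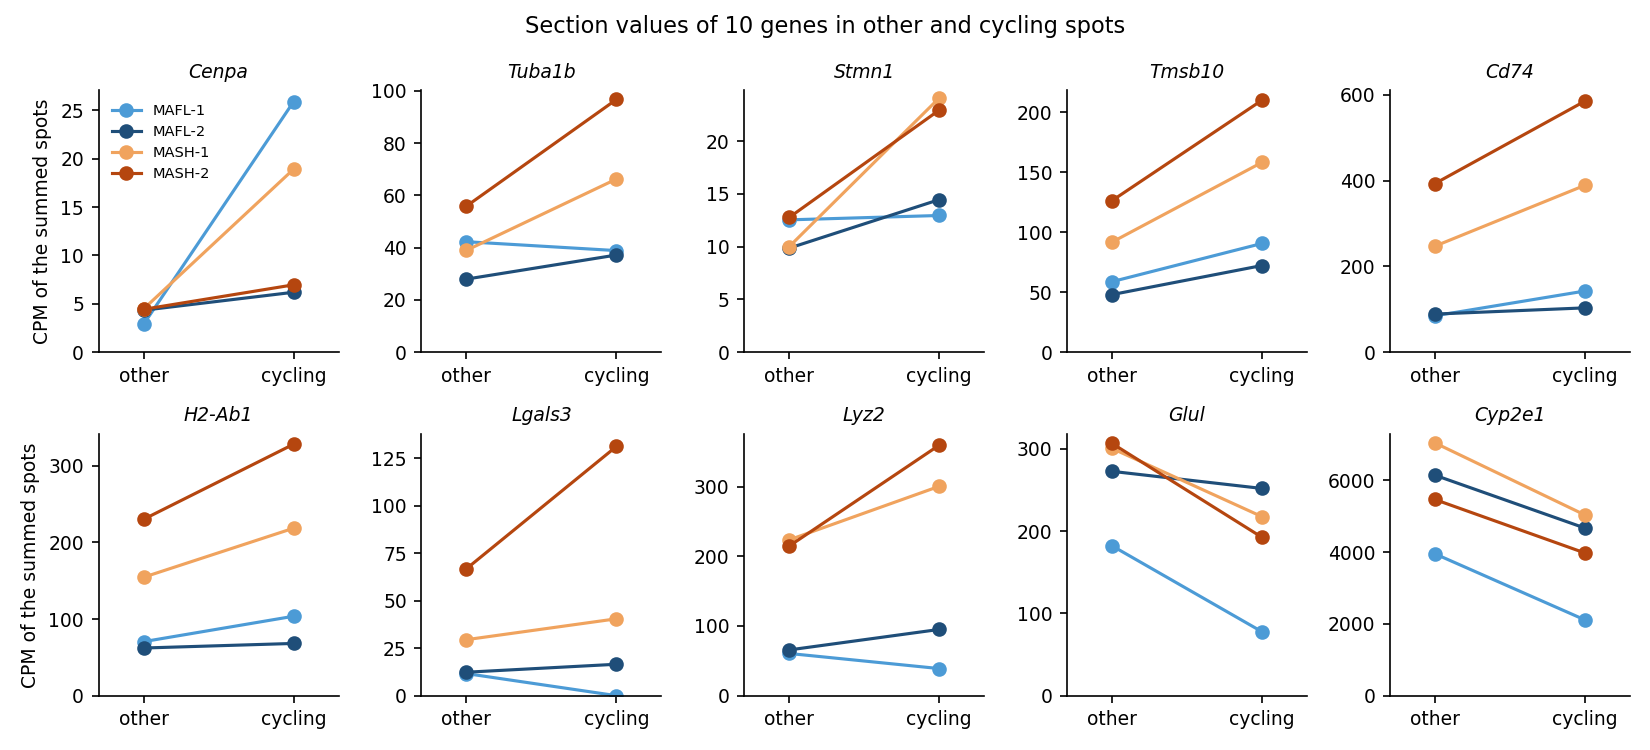
CPM of the summed spots (vertical axes, TMM-adjusted) for 10 genes in other and cycling spots, with 1 line per section. Cenpa, Stmn1, Tmsb10, Cd74 and H2-Ab1 are higher in all 4 sections and Glul and Cyp2e1 lower in all 4, whereas Tuba1b, Lgals3 and Lyz2 are not higher in MAFL-1, whose cycling sum holds 3 spots. The TMM factor of that sum also lowers its values.

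The difference between the classes was then compared between MASH and MAFL. Of 12119 genes, 2 passed (0.0165%), S100a9 and S100a8, the calprotectin subunits of neutrophils, and 500 had an unadjusted p under 0.05. In MAFL-2 S100a9 stood at 155 CPM in cycling spots and 5.93 in others, against 11.9 and 7.06 in MASH-2. Of 75 S100a9 UMIs in the cycling spots of MAFL-2, 72 lay in 1 spot, which also held 70 of S100a8, 28 of the granule gene Mpo, 22 of Camp and 7 of Prtn3. Without that spot 0 genes passed in edgeR and 502 had an unadjusted p under 0.05, DESeq2 called 0 with it, and no cell cycle gene passed the interaction with or without it.

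Single spots carried other groups as well. The MASH-2 spot with a sum of 9 held 9 UMIs of Prtn3, 7 of Mpo, 11 of Ly6c2 and 8 of Ccr2, and 40.9 UMIs of other cell cycle genes per 10000. The MASH-1 spot with a sum of 9 held 200 UMIs of Igkc and 29 of Jchain, both of antibody-secreting cells, and 24.7 UMIs of other cell cycle genes per 10000. Another spot, in MASH-2, held 280 UMIs of Igkc with a sum of 2. These spots were singled out once their values were known. Of the 49 genes that were higher, 8 had over 30% of their cycling UMIs in 1 spot, among them Jchain, Col1a1, Timp1 and Prtn3.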

How the data were processed

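The authors ran Space Ranger (version 1.2.2 per the file headers) on 4 liver sections, with the genome mm10 per the submitters' processing notes. The deposited matrices hold counts, 1 whole number of UMIs for each gene and spot, for 31253 features. Barcode and feature lists only name spots and genes. All CPM, ratios and log2 values were computed here from these deposited counts.

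The members, gene lists and tests were chosen with earlier results of these data known. Section order is MAFL-1, MAFL-2, then MASH-1, MASH-2. The kept spots held 32126070, 38060653, 63669174 and 44539660 UMIs, and the cycling sums 60704, 505659, 1176107 and 2365058, so 1 UMI weighs most in MAFL-1. Spots under 5000 UMIs (38, 22, 46 and 16) were left out, none of which had a sum of 2 or more. Counts were summed per class and section without the 6 rule genes. The main test was edgeR's quasi-likelihood test (edgeR 4.0.16, R 4.3.3) with TMM, filterByExpr, a robust fit and the section as block, and p-values were adjusted by Benjamini-Hochberg over all genes tested (threshold 0.05). The TMM factors were 1.27 for the cycling sum of MAFL-1 and 0.922 for its other spots, which lowers its cycling CPM against the others. Where a gene is lower or not higher in MAFL-1, that direction may depend on these factors. Per 10000 UMIs, without TMM, the hepatocyte list stood higher in cycling spots of MAFL-1 (1220 against 1134). With TMM, 12 of its 15 genes were lower in 4 of 4 sections. Alternatives used DESeq2 1.42.0 and limma 3.58.1 (voom). DESeq2 ran with its default filter on mean count, and genes it left without an adjusted p were counted as not passing. Thinning drew 5000 UMIs of a spot without replacement. Python 3.11.15 ran the remaining steps (pandas 2.3.3, numpy 2.4.6, scipy 1.17.1). No doublet caller applies to spots.

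The fits were checked on simulated data. For the class comparison (11942 genes) they recovered 56 of 98 genes with a 2-fold change and 87 of 99 with a 4-fold change, and 4 of 147 calls were false. For the interaction (11934 genes) they recovered 10 of 99 and 39 of 99, with 0 of 49 calls false. The simulated counts followed the spread that the fit itself assumes. They held no clumping of UMIs in single spots, which the real sums do, so these rates may not hold for the real data.

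Of 382 list symbols 380 were found, and Ahsp and Anxa13 are not analysed here. Single values of 1 gene that passed are not reported here, and it stays in the fits and list counts. Genes were named by rule: past the threshold, averaging 5 CPM or more, moving 1 way in 4 of 4 sections, and among the 10 highest or 10 lowest log2 fold changes once Mup, ribosomal, mitochondrial, haemoglobin, predicted and sex-linked genes were set aside. The interaction's 5 highest and 5 lowest were added, and up to 6 (cycle and signal lists) or 4 (cell type lists) members of smallest p per list. Ccl6, Crip1, Cd52, Tmsb4x, Prtn3, Mpo, Camp and Igkc were singled out once their values were known. Of the alternatives 45 were planned and 7 were added after the data were seen. They covered scaling, filters, the sum, depth, zone, immune content and each section left out.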

Additional observations from a re-analysis of the deposited data

Results flagged for a closer look

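S100a9 and S100a8 differed between the groups in a test of the difference itself. The class difference in MASH minus that in MAFL was -3.88 for S100a9 and -2.93 for S100a8 on the log2 scale (edgeR adjusted p = 3.11e-20 and 3.49e-12). Without 1 cycling spot of MAFL-2 these values were 0.59 and 1.51, and neither passed.

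For 4 genes called higher in cycling spots, CPM was below that of the other spots in both MAFL sections and above it in both MASH sections, and the interaction of class and group did not pass for them in edgeR. Ccl6, a chemokine of myeloid cells, had a log2 fold change of 0.79 over all sections. Col1a1, the fibrillar collagen chain, had 0.87, Timp1 1.06 and Jchain, the joining chain of antibodies, 1.14. The MAFL values rest on few UMIs and show no direction. Col1a1, Timp1 and Jchain had 0 UMIs in the cycling spots of both sections, where the rate of the other spots gives 0.284, 0.0767 and 0.147 UMIs in MAFL-1 and 1.50, 0.278 and 1.45 in MAFL-2. Ccl6 had 0 UMIs against 1.27 expected in MAFL-1 and 8 against 7.98 in MAFL-2.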

How the results depend on the processing

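The class comparison called 89 genes, and the count moved with most choices: 13 by DESeq2, 141 by limma voom, 148 with library totals alone, 59 with a sum of at least 3, 3 with classes after thinning (at least 2), 18 with at least 1 thinned UMI, 21 with depth-matched others, 55 with 10 depth-matched others per cycling spot, 16 with depth and zone matched and 37 in immune-poor spots. Leaving out a section gave 14 to 168 genes, 14 without MASH-2, 45 without MASH-1 and 168 without MAFL-1. The interaction called 2 genes: 0 by DESeq2, 1 by limma voom, 34 with a sum of at least 3, 0 with a sum of at least 1, 0 after thinning, 0 with depth and zone matched, 5 in immune-poor spots, 0 without the S100a8-rich spot, and 2 to 70 with a section left out. Held-out genes past the threshold went from 3 to 0 after thinning, and from 0 to 3 with a section left out. The replicate numbers pair no samples by any label: with the replicate block the interaction called 2 genes and the group difference in share stayed at 0.326 points. The zone difference was -0.0807 points with another seed, and the immune difference ran from -0.0125 (without MASH-2) to 0.204 points with a section left out. The cause of these moves was not tested.

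Of 857 values of 48 named genes under the alternatives, 536 kept direction and call, 300 lost the call and 21 reversed, and no gene kept its call in all. Log2 fold changes that reversed with depth and zone matched were Oat 0.094, Slc1a2 0.25, Cyp2c37 0.19, Glul 0.13, Cyp3a11 0.0078, Cyp2c50 0.014 and Gpnmb -0.038, and with depth alone matched Cyp2c37 0.13. With at least 1 thinned UMI they were Oat 0.0011, Cfd 0.097, Slc1a2 0.16, Lect2 0.049, Cyp2c37 0.0065, Glul 0.037, Mcm5 -0.12, Col3a1 -0.098 and Timp1 -0.044, and with at least 2, Ccnb2 -7.15, Gpnmb -0.64 and Col1a2 -0.58. In immune-poor spots Mmp12 had -0.52. The interaction reversed for S100a9 with a sum of at least 3 (10.00), after thinning (11.03), without the S100a8-rich spot (0.59) and without MAFL-2 (9.75), and for S100a8 after thinning (11.66), in immune-poor spots (0.11), without that spot (1.51) and without MAFL-2 (10.64). With a section left out the interaction ran from -4.70 to 9.75 for S100a9 and from -3.28 to 10.64 for S100a8. Values near 10 compare with sums at 0 and are no fold. Depth limits MAFL-1 most, where cycling spots number 3.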

Other observations

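Crip1, Cd52, Tmsb4x and Prtn3 were singled out once their values were known. Crip1, a LIM-domain protein, was 1.78-fold higher in cycling spots (edgeR adjusted p = 1.03e-10), at 91.2 against 38.2 CPM in MASH-1 and 111 against 68.3 in MASH-2, and at 25.9 against 30.2 in MAFL-1 and 20.7 against 19.2 in MAFL-2. The MAFL-1 order of Crip1 rests on few UMIs and on the TMM factors, and gives no direction. Cd52, a surface peptide of lymphocytes and monocytes, was 1.73-fold higher (edgeR adjusted p = 2.35e-09) in 3 of 4 sections. Tmsb4x, a sequestering peptide of actin monomers, was 1.39-fold higher (edgeR adjusted p = 0.000162) in 3 of 4 sections. The neutrophil granule protease Prtn3 was 4.35-fold higher (edgeR adjusted p = 1.45e-05), on 24 UMIs in 10 of the 138 cycling spots. In spots below the median of immune UMIs, the 5 genes that were higher were Ly6d, Frmd4b, Hsd17b13, Spp1 and Cd63, while Mmp12 had a log2 fold change of -0.52 there (edgeR adjusted p = 0.999).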
